A study of Homo sapiens with 12 samples.

Results

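Antisense RNA genes of HEK 293T cells were followed through treatment with PDP, a small molecule known here by that code name. They were found by symbol: every gene whose symbol ends in -AS and a number was taken when its level reached 1 FPKM (fragments per kilobase of transcript, scaled to the library's mapped fragments) in either condition of any of the 3 deposited comparison tables. Of 1173 genes with such a symbol among 58083 genes, 276 met that level, and 268 of them had their partner, the gene named before -AS, in the same table. The members were chosen by these measured FPKM levels, so their levels and calls are given as a description. The last genes inside the limit were CPB2-AS1 at a highest value of 1.00 FPKM, ZNF30-AS1 at 1.01 and SEC24B-AS1 at 1.02. The nearest outside it were WEE2-AS1 at 0.996, SP2-AS1 at 0.993 and FAM212B-AS1 at 0.982.

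HEK 293T is an established human line from embryonic kidney, transformed with adenovirus DNA and the SV40 large T antigen. The study measured poly(A) RNA of cells given DMSO for 3 h, the only control, and of cells that had PDP at 1 µM in the medium for 3, 24 or 72 h, with 2 samples per group, and it sequenced G-quadruplexes pulled down from annealed genomic DNA of the line beside the input. G-quadruplexes are stacked structures that guanine-rich DNA can fold into, and the expression experiment addressed which genes change when the molecule is added. Each table holds 1 pooled FPKM per condition, and the labels do not say whether the 2 samples came from separate cultures. The 3 comparisons share the control samples, and because that control was collected at 3 h, the 24 h and 72 h values also include the time in culture, which cannot be told apart from PDP. The control column was rescaled between tables, with 24 h values 1.04 times and 72 h values 0.968 times those at 3 h.

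An antisense RNA is transcribed from the strand opposite to that of its partner. Some overlap the partner's exons or introns, and others start beside its promoter and run away from it, which is called divergent transcription and is common at promoters that are rich in CpG. Many such RNAs are noncoding, are made at low levels and are quickly degraded by the nuclear exosome, and termination by the Integrator and cleavage complexes keeps others short. Some are known to act on the partner gene, and others act elsewhere in the cell. In HEK 293T controls the line's markers VIM (259 FPKM), NEFM (39.1 FPKM), LIN28B (35.5 FPKM) and NEFL (23.1 FPKM) were present, whereas PAX2 and INA were under 1 FPKM. Of the markers of other cell types, PECAM1 and HBB were listed at 0, PTPRC, ALB and GFAP were under 1 FPKM, and the fibroblast marker COL1A1 was at 12.6 FPKM in the control and at 22.8 and 23.0 FPKM after 24 and 72 h of PDP. The part of COL1A1-expressing cells in the results was not tested.

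The antisense RNAs were low beside their partners. Their median level was 1.67 FPKM in the control of the 3 h table, against 14.2 FPKM for the partners. After PDP the median level was 1.59, 2.41 and 2.37 FPKM at the 3 times, while the partners' median was 14.6, 13.3 and 14.3 FPKM. The number of antisense RNAs at or above 1 FPKM was 190 in the control and 195 after PDP at 3 h, 193 and 239 at 24 h, and 188 and 219 at 72 h. Those above 10 FPKM went from 33 to 44 at 24 h and from 32 to 47 at 72 h. Because a value in a PDP column alone could admit a member, 83 of the 276 were below 1 FPKM in every control column, and the rises of those 83 are in part fixed by the choice.

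**Figure D1:**
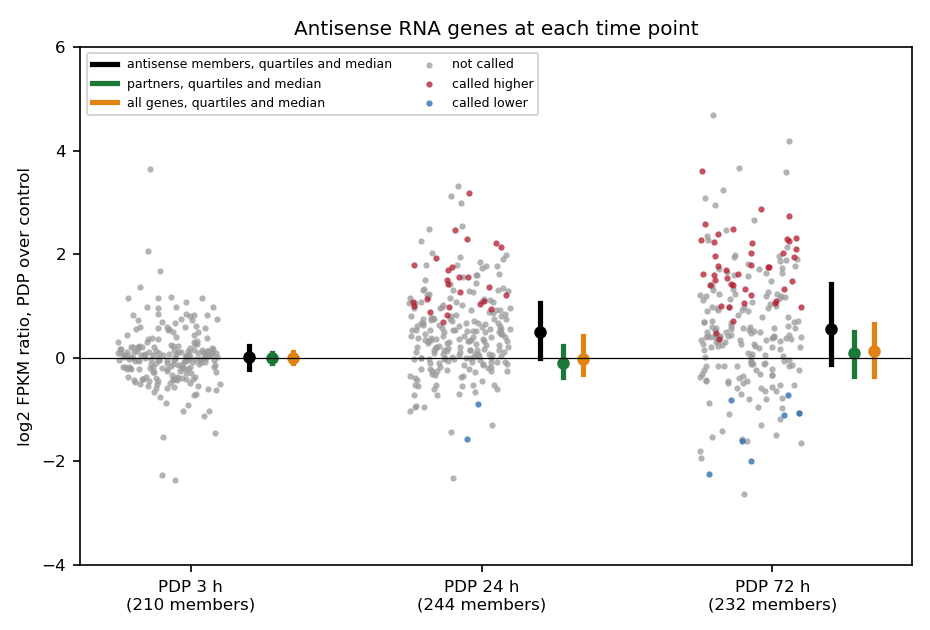
Log2 fold change (PDP over control, deposited FPKM) of each antisense RNA with at least 1 FPKM in either condition, at 3 h, 24 h and 72 h; points are genes, red where called higher and blue where called lower, and bars beside them give the quartiles and median of antisense RNAs, partners and all genes. The antisense medians are 0.01, 0.50 and 0.55, and no point is called at 3 h.

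At 3 h no antisense RNA was called. A call is here a q-value under 0.05 in the authors' deposited table, from their own test over all genes, and 242 members were tested. Of all genes tested at 3 h, 0.108% were called higher and 0.00678% lower. At 3 h the authors' deposited table gave 3 members with an unadjusted p under 0.05. The median log2 fold change at 3 h was 0.01 over 210 antisense RNAs with at least 1 FPKM in either condition, with 106 of them above 0.

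At 24 h, 26 antisense RNAs rose and 2 fell of 263 tested, and at 72 h, 47 rose and 7 fell of 262 tested. The shares were 9.89% and 0.760% at 24 h and 17.9% and 2.67% at 72 h. Over all genes tested, the authors' deposited tables called 9.21% higher and 8.29% lower at 24 h, and 19.0% higher and 12.8% lower at 72 h. Taken over all control levels, the antisense RNAs were thus called higher at shares close to those of all genes and were called lower in smaller shares. The median log2 fold change was 0.50 at 24 h over 244 members and 0.55 at 72 h over 232, against -0.01 at 24 h over 14463 genes and 0.12 at 72 h over 14421 genes. The standard error implied by the authors' test statistic was wide for antisense RNAs, at a median of 1.06 and 1.08 on the log2 scale, against 0.38 and 0.40 for all genes.

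By median change, genes of the same control level moved more like the antisense RNAs. Among the 137 antisense RNAs with 1 to 5 FPKM in the control, the median log2 fold change at 24 h was 0.40. Of them 15 were called higher and 1 lower, or 10.9% and 0.730%. Over 3602 genes of that level the median was 0.35, with 17.8% called higher and 1.50% lower. At 72 h the median was 0.43 for these antisense RNAs, with 28 called higher and 3 lower, or 20.4% and 2.19%. For all genes of that level it was 0.28, with 22.7% called higher and 8.02% lower. In this band the antisense RNAs were thus called in smaller shares, both higher and lower, than all genes. Among the 53 antisense RNAs at 5 FPKM or more the medians were 0.07 at 24 h and 0.30 at 72 h, against -0.13 and 0.01 for all genes of that level. The number of called antisense RNAs in that band was 3 higher and 1 lower at 24 h, and 8 higher and 4 lower at 72 h. Those are 5.66% and 1.89%, then 15.1% and 7.55%, against 4.85% and 12.4%, then 17.3% and 16.9%, of all genes at that level.

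**Figure D2:**
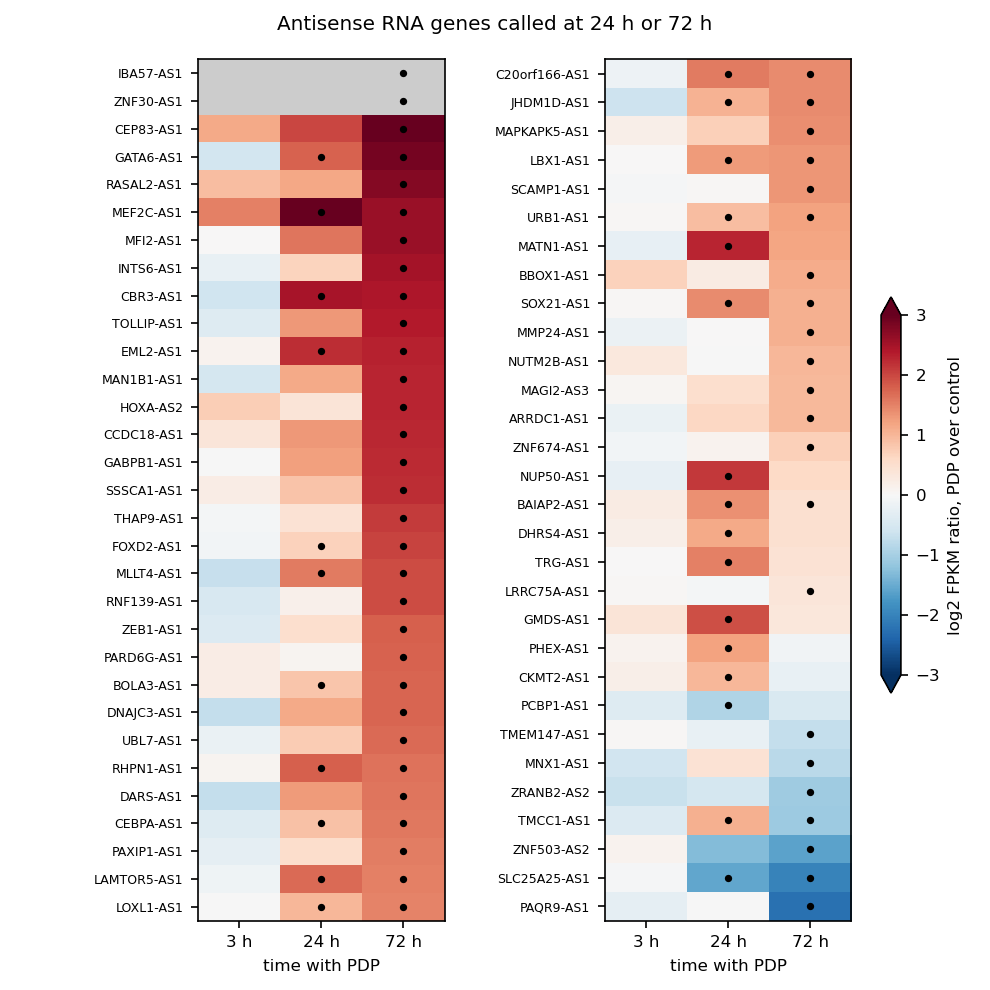
Heat map of the log2 fold change (PDP over control; red higher, blue lower, colour ends at 3 and -3, grey where the control is listed at 0) of antisense RNAs called at 24 h or 72 h, with 1 of the 62 left out, 1 row per gene and 1 column per time point; black dots mark calls. Most rows turn red from the 24 h column on, GATA6-AS1 goes from 1.76 to 2.88, and TMCC1-AS1 is red at 24 h (1.08) and blue at 72 h (-1.10).

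The most abundant antisense RNA was LRRC75A-AS1, the host transcript of small nucleolar RNAs that is now named SNHG29. It stood at 386 FPKM in the control and 392 FPKM after PDP at 3 h, at 401 and 386 FPKM at 24 h, and at 374 and 483 FPKM at 72 h. Its rise at 72 h, a log2 fold change of 0.37 with a standard error of 0.20, was called (q = 0.0325 in the authors' deposited table). THAP9-AS1, next in level and antisense to a gene for a transposase-derived protein, stood at 53.3 and 51.5 FPKM at 3 h, 55.4 and 74.3 at 24 h, and 51.6 and 222 at 72 h. Its log2 fold change of 2.11 (standard error 0.43) at 72 h was called, while THAP9 itself, at 7.76 FPKM in the control and 9.77 FPKM after PDP, was not. PCBP1-AS1, antisense to the gene of a poly(C)-binding RNA-binding protein, was at 38.3 FPKM in the control and 20.5 FPKM after PDP at 24 h (log2 fold change -0.90, standard error 0.83, q = 0.0216 in the authors' deposited table). It had no call at 72 h, with 35.7 FPKM in the control and 26.2 FPKM after PDP. VPS9D1-AS1, THUMPD3-AS1 and FGD5-AS1 completed the 6 highest and had no call. FGD5-AS1, known as a cytoplasmic noncoding RNA, went from 32.3 to 25.5 FPKM at 24 h, then from 30.1 to 20.1 FPKM at 72 h, and THUMPD3-AS1 from 33.7 to 25.5 FPKM and from 31.4 to 47.1 FPKM.

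Of 62 antisense RNAs called at 24 h or 72 h, 18 rose at both time points and SLC25A25-AS1 fell at both. A further 7 rose at 24 h alone and 29 at 72 h alone by the threshold, and whether the change of any of these differed between the times was not tested. Both comparisons share the control samples, and the share of all genes called at both times is not given here. FOXD2-AS1, beside a forkhead transcription factor gene, went from 1.98 to 3.21 FPKM at 24 h, then from 1.85 to 7.53 FPKM at 72 h. BOLA3-AS1 and URB1-AS1, beside genes for mitochondrial iron-sulfur cluster assembly and for ribosome biogenesis, had PDP values at 72 h of 9.78 FPKM over 2.90 and 11.6 FPKM over 4.98. LBX1-AS1 went from 4.39 to 10.6 FPKM at 24 h, then from 4.10 to 10.3 FPKM at 72 h. LOXL1-AS1, beside a lysyl oxidase gene, went from 4.08 to 8.11 FPKM and from 3.81 to 10.7 FPKM. JHDM1D-AS1, whose partner is the histone demethylase gene now named KDM7A, went from 1.41 to 2.89 FPKM and from 1.31 to 3.50 FPKM. C20orf166-AS1 rose as well, to 4.34 FPKM over 1.48 at 24 h and 3.72 FPKM over 1.38 at 72 h. These last 7 RNAs were named because each was called higher at 24 h and 72 h, so their shared direction is fixed by that choice.

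Several of the called rises with a large ratio came from antisense RNAs that were near 0 in the control. MEF2C-AS1 went from 0.153 to 1.40 FPKM at 24 h, a log2 fold change of 3.19 whose implied standard error was 5.15. CBR3-AS1 went from 0.193 to 1.07 FPKM at 24 h, with a log2 fold change of 2.47 and a standard error of 3.77. Both were called by the authors although the implied standard error is larger than the change, which held for 2 called members at 24 h and 5 at 72 h. CEP83-AS1 went from 0.166 to 2.01 FPKM at 72 h, a log2 fold change of 3.60 with a standard error of 0.87. IBA57-AS1 and ZNF30-AS1 were listed at 0 in the control and at 1.23 and 1.01 FPKM after 72 h of PDP, so they have no fold change. RASAL2-AS1, MFI2-AS1 and TOLLIP-AS1 rose at 72 h from 0.198 to 1.32, from 1.59 to 9.61 and from 1.02 to 5.31 FPKM. MATN1-AS1 and GMDS-AS1 rose at 24 h, from 0.392 to 1.92 and from 1.62 to 6.17 FPKM, and had no call at 72 h at 0.834 and 1.92 FPKM.

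The fallen antisense RNAs were few. SLC25A25-AS1, whose partner encodes a mitochondrial ATP-Mg/phosphate carrier, stood at 3.72 FPKM in the control and 3.62 FPKM after PDP at 3 h, 3.86 and 1.31 FPKM at 24 h, and 3.60 and 0.902 FPKM at 72 h. Its log2 fold change at 24 h was -1.56 with a standard error of 0.48, and SLC25A25 had no call. TMEM147-AS1 fell at 72 h from 18.7 to 11.3 FPKM and ZRANB2-AS2, beside the gene of a splicing factor, from 1.63 to 0.778 FPKM. PAQR9-AS1 was called lower at 72 h with 1.11 FPKM in the control and 0.233 after PDP, a log2 fold change of -2.25 with an implied standard error of 10.6. TMCC1-AS1, beside the gene of an endoplasmic reticulum membrane protein, was the only antisense RNA called in opposite directions. It stood at 7.13 FPKM in the control and 5.35 FPKM after PDP at 3 h, at 7.41 and 15.6 FPKM at 24 h, and at 6.90 and 3.22 FPKM at 72 h. TMCC1 itself had no call, at 7.70 and 11.2 FPKM at 24 h and 7.18 and 8.82 FPKM at 72 h.

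Described antisense RNAs, a list of 41 symbols that have been studied in other cells, had 25 members here. None was called at 3 h, 4 of 25 tested rose at 24 h and 10 of 25 at 72 h, and none fell. The shares of 16.0% and 40.0% stand beside 9.89% and 17.9% of all antisense RNAs and 9.21% and 19.0% of all genes, and the list was chosen with these results known. CBR3-AS1 and MEF2C-AS1, called higher at both times, were at 0.193 and 0.153 FPKM in the 24 h control. They are members only through a PDP value, so their rises are in part fixed by the choice. The list's median log2 fold changes were 0.42 at the first of these times and 0.71 at the second, beside 0.50 and 0.55 for all members. Besides those given above, GABPB1-AS1, beside the gene of a subunit of the transcription factor GABP, went from 3.96 to 18.5 FPKM at 72 h. HOXA-AS2, from the HOXA cluster and with no single partner, went from 2.24 to 10.9 FPKM, PAXIP1-AS1 from 4.28 to 12.4 FPKM and MAPKAPK5-AS1 from 11.9 to 31.5 FPKM. All 4 were called at 72 h and had no call at 24 h. Antisense RNAs whose partner symbol starts like that of a transcription factor family numbered 33, with 32 tested at 24 h and 72 h. Of these 4 rose and none fell at 24 h, and 10 rose and 1 fell at 72 h, with medians of 0.42 and 0.43. The shares called higher were 12.5% and 31.2%, beside the same 9.21% and 19.0% of all genes. That list was made by symbol alone and so takes in PAXIP1-AS1, whose partner encodes a DNA damage response protein. It overlaps the described list: ZEB1-AS1, MEF2C-AS1, THAP9-AS1, HOXA-AS2, GATA6-AS1 and PAXIP1-AS1, all called higher at 72 h, are in both. Its called members also include ZNF30-AS1 and MEF2C-AS1, at 0 and 0.143 FPKM in the 72 h control, which are members only through a PDP value.

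Partners were called lower more often than higher at 24 h, and the reverse at 72 h. At 24 h the authors' deposited table called 11 partners higher and 36 lower of 238 tested, or 4.62% and 15.1%. At 72 h it called 46 higher and 35 lower of 236, or 19.5% and 14.8%. All genes at 5 FPKM or more in the control, a band that holds the partners' median level, had shares of 4.85% higher and 12.4% lower at 24 h, then 17.3% and 16.9% at 72 h, close to the partners' shares. The partners' median log2 fold changes were -0.01, -0.10 and 0.09 at 3, 24 and 72 h, near those of all genes. At 3 h the one called partner was ATP2A1, a muscle calcium pump gene, at 1.49 FPKM in the control and 11.4 FPKM after PDP, while ATP2A1-AS1 stood at 10.6 and 10.0 FPKM.

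Over all pairs, the change of the antisense RNA and that of its partner had little relation. Pairs in which both genes had a geometric mean of at least 1 FPKM numbered 157, 177 and 165 at 3, 24 and 72 h. Across these pairs, which share libraries, Spearman's rho of the log2 fold changes was -0.04, 0.07 and 0.06, and Pearson's r was -0.02, 0.13 and 0.11. Smaller sets differed in sign at 72 h: rho was -0.26 over 45 pairs in different locus entries, 0.16 over 120 pairs in the same entry and 0.41 over 22 pairs whose antisense start lay within 1 kb downstream of the partner's. The directions were opposite in 75 of 157, 96 of 177 and 77 of 165 pairs. At 24 h the antisense RNA was higher and the partner lower in 79 pairs, and the reverse held in 17. Both were higher in 50 pairs and both lower in 31. Among these 177 pairs the median change was 0.43 for antisense RNAs and -0.14 for partners. Whether pairs were opposite more often than these separate shifts give was not tested. The antisense change minus the partner change had medians of 0.01, 0.57 and 0.58 at the 3 times. The RNA kit kept the strand, but whether counting used it is not stated in the sources used here, so reads from overlapping members of a pair cannot be shown to have been separated.

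**Figure D3:**
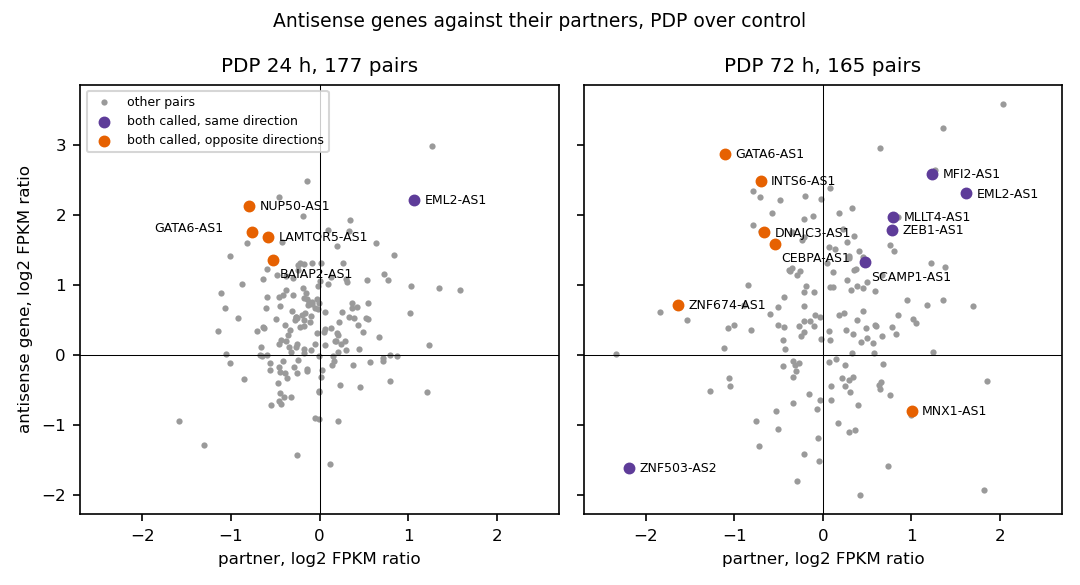
Log2 fold change of each antisense RNA (vertical axis) against that of its partner (horizontal axis) at 24 h and 72 h, for pairs with a geometric mean of at least 1 FPKM in both genes; coloured points are those of these pairs in which both genes were called, purple in the same and orange in opposite directions. The 177 pairs at 24 h and 165 at 72 h lie mostly above 0 on the vertical axis and on both sides of 0 on the horizontal axis, with Spearman's rho of 0.07 and 0.06.

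Both genes were called in 6 pairs at 24 h, 4 of them in opposite directions, and in 16 pairs at 72 h, 9 of them in opposite directions. All 4 of the 24 h pairs that moved apart, and 8 of the 9 at 72 h, had starts within 1 kb of each other, as did 110 of the 198 pairs that could be placed. Of the pairs called in the same direction, none of 2 at 24 h and 4 of 7 at 72 h were placed with such starts. Among these, EML2-AS1 at both times and MLLT4-AS1 at 72 h could not be placed, so their start distance is unknown. NUP50-AS1, DNAJC3-AS1, MEF2C-AS1 and ZNF30-AS1, from pairs called in opposite directions, were under 1 FPKM in the control. So were RHPN1-AS1, MLLT4-AS1 and MAN1B1-AS1, from pairs called in the same direction. The place of these RNAs among the members thus rests on the PDP value that is higher. The promoters of 6 antisense RNAs that carry these patterns are printed here as RefSeq gives them on GRCh38.p14, 250 bases before to 50 bases after the start, in the direction of the antisense RNA. Capitals mark matches to GGG N1-7 GGG N1-7 GGG N1-7 GGG, 4 runs of at least 3 G split by 1 to 7 bases, or to the same on the other strand, where it reads as runs of C; overlapping matches are joined. They lie at chr18:22168919-22169218 on the minus strand for GATA6-AS1, chr13:51453095-51453394 on the plus strand for INTS6-AS1, chr17:81034670-81034969 on the minus strand for BAIAP2-AS1, chr7:157010607-157010906 on the plus strand for MNX1-AS1, chr3:129893621-129893920 on the plus strand for TMCC1-AS1 and chr10:75401278-75401577 on the plus strand for ZNF503-AS2. The first 4 belong to pairs called in opposite directions, TMCC1-AS1 is the RNA that was called higher and then lower, and ZNF503-AS2 belongs to a pair that fell together.
GATA6-AS1: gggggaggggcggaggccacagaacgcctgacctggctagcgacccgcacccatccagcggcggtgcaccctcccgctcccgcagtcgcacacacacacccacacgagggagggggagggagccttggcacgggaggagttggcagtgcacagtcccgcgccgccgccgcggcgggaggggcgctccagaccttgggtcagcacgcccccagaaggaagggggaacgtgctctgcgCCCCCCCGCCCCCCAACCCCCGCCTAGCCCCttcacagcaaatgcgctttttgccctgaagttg
INTS6-AS1: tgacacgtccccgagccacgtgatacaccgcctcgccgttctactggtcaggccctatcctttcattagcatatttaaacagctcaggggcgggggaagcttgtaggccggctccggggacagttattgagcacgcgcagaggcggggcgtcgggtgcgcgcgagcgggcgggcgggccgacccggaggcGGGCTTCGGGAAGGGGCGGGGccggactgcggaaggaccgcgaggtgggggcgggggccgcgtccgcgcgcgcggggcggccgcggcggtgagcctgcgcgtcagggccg
BAIAP2-AS1: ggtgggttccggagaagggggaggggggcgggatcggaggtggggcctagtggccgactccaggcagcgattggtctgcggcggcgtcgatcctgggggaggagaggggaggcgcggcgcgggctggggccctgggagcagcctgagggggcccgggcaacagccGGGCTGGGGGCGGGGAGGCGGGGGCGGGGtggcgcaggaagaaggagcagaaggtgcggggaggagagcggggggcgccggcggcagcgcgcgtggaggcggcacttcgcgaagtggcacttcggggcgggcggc
MNX1-AS1: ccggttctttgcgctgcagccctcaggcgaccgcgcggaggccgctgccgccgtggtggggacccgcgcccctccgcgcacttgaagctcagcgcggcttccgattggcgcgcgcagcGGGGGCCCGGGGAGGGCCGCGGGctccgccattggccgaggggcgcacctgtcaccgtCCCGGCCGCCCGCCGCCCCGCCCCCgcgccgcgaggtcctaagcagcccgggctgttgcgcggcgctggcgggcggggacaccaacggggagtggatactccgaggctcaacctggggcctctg
TMCC1-AS1: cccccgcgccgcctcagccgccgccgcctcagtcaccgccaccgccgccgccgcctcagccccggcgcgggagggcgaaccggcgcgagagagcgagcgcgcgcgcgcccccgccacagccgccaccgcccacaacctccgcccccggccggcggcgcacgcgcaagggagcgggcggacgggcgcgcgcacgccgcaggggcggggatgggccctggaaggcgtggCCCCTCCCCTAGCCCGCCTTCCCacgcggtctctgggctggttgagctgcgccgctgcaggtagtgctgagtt
ZNF503-AS2: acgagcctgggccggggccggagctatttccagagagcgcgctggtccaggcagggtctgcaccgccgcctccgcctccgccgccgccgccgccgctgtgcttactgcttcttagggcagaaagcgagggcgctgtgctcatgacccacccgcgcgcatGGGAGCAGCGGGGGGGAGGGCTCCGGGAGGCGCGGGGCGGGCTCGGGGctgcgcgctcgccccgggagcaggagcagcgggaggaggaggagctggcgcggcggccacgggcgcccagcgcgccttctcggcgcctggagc
A match is a description of the letters and not a folded structure. All 6 printed promoters hold a match, while 80 of 222 antisense promoters (36.0%) do. The 6 were selected from the named RNAs, so their number with a match cannot be set against that share. Promoters of other pairs with both genes called are not printed, and whether a match goes with the direction of change was not tested. No peak of the pull-down list had its centre within 500 bases of any of these 6 starts.

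GATA6 encodes a zinc finger transcription factor of endoderm and heart, and GATA6-AS1 starts 621 bases upstream of it on the opposite strand. GATA6-AS1 stood at 1.50 FPKM in the control and 1.03 FPKM after PDP at 3 h, at 1.56 and 5.29 FPKM at 24 h, and at 1.46 and 10.7 FPKM at 72 h, whereas GATA6 went from 23.4 to 24.2, from 24.3 to 14.3 and from 22.7 to 10.5 FPKM. The log2 fold changes at 72 h were 2.88 (standard error 0.74) for the antisense RNA and -1.11 (standard error 0.23) for GATA6. At 72 h the antisense RNA and GATA6 thus stood at a like FPKM after PDP. This was the one pair called in opposite directions at both 24 h and 72 h.

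INTS6, a subunit of the Integrator complex that ends transcription early, fell at both later times, at 24 h from 15.0 to 7.14 FPKM and at 72 h from 13.9 to 8.57 FPKM. INTS6-AS1 starts 309 bases from it and stood at 1.01 FPKM in the control and 5.69 FPKM after PDP at 72 h, a rise with a log2 fold change of 2.49 (standard error 1.65). At 24 h it had stood at 1.08 and 1.73 FPKM with no call. NUP50, a nuclear pore gene, fell at 24 h from 70.1 to 40.5 FPKM while NUP50-AS1 rose from 0.638 to 2.80 FPKM. LAMTOR5, a subunit of the Ragulator complex on lysosomes, fell from 74.7 to 49.9 FPKM while LAMTOR5-AS1 rose from 4.64 to 14.9 FPKM. BAIAP2, which links membranes to the actin skeleton, fell from 21.7 to 15.1 FPKM while BAIAP2-AS1, starting 432 bases from it, rose from 2.21 to 5.69 FPKM. At 72 h LAMTOR5-AS1 and BAIAP2-AS1 were still called higher, at 12.3 over 4.32 and 2.90 over 2.07 FPKM, and neither partner was called.

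The other pairs that moved apart at 72 h were mostly low. CEBPA, a transcription factor of liver, fat and myeloid cells, fell from 11.0 to 7.53 FPKM and CEBPA-AS1 rose from 1.25 to 3.76 FPKM. DNAJC3, a chaperone gene of the endoplasmic reticulum, fell from 16.9 to 10.7 FPKM and DNAJC3-AS1 rose from 0.718 to 2.42 FPKM. SOX21-AS1 rose from 1.79 to 3.75 FPKM beside a fall of SOX21, a neural transcription factor gene, from 0.934 to 0.380 FPKM. ZNF674-AS1 rose from 4.60 to 7.57 FPKM beside a fall of ZNF674 from 2.12 to 0.680 FPKM. The zinc finger gene ZNF30 fell from 4.59 to 2.45 FPKM, and MEF2C, a transcription factor gene of muscle and neurons, from 5.83 to 2.97 FPKM with an implied standard error of 1.98 on the log2 scale, while MEF2C-AS1 rose from 0.143 to 0.865 FPKM. MNX1 was the reverse case: this motor neuron and pancreas homeobox gene rose from 13.5 to 27.1 FPKM while MNX1-AS1, which starts 194 bases from it, fell from 5.50 to 3.15 FPKM (log2 fold change -0.81, standard error 0.45).

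Other pairs moved together. EML2, which encodes a microtubule-associated protein, rose with EML2-AS1 at both times: EML2 went from 17.0 to 35.8 and from 15.9 to 48.8 FPKM, and EML2-AS1 from 2.29 to 10.7 and from 2.14 to 10.6 FPKM. RHPN1 and RHPN1-AS1 rose at 24 h, from 6.89 to 12.7 and from 0.512 to 1.76 FPKM. At 72 h ZEB1, a regulator of the epithelial to mesenchymal transition, rose from 8.33 to 14.3 FPKM with ZEB1-AS1 from 2.99 to 10.3 FPKM. MELTF, the partner of MFI2-AS1, rose from 8.30 to 19.5 FPKM, and MLLT4, a cell junction gene, from 68.1 to 118 FPKM with MLLT4-AS1 from 0.789 to 3.09 FPKM. MAN1B1-AS1, beside a mannosidase gene that rose from 19.0 to 28.7 FPKM, went from 0.297 to 1.45 FPKM. ZNF503 and ZNF503-AS2 were the pair that fell together, ZNF503 from 80.6 to 17.6 FPKM (log2 fold change -2.20, standard error 0.21) and ZNF503-AS2 from 13.1 to 4.30 FPKM (-1.61, standard error 0.88). In EML2, ZEB1, MELTF and ZNF503 both genes of the pair share 1 locus entry, as in 204 of all 268 pairs. Of pairs called in opposite directions, LAMTOR5, INTS6 and MEF2C also share an entry, whereas others such as GATA6, NUP50 and MNX1 do not.

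Position was given by RefSeq for 198 pairs, all on opposite strands. In 110 of them the starts lay within 1 kb, with the antisense start upstream of the partner's in 76 and downstream in 34. In 35 the antisense RNA started inside the partner, farther from its start, and in 53 outside it. The pairs with close starts had median antisense log2 fold changes of 0.02, 0.54 and 0.83 at 3, 24 and 72 h, with 12 called higher and 1 lower of 104 tested at 24 h, and 23 higher and 6 lower of 107 at 72 h. Antisense RNAs starting inside the partner had medians of 0.05, 0.68 and 0.51. Of 33 tested at each later time, 3 were called higher at 24 h and 4 at 72 h, and none lower. Those starting outside had medians of -0.01, 0.33 and 0.44, with 2 higher and 1 lower of 53 tested at 24 h. At 72 h 5 of these were higher and 1 lower of 49. Over all genes tested the shares were 9.21% higher and 8.29% lower at 24 h, and 19.0% and 12.8% at 72 h. When only members with at least 1 FPKM in the control were kept, the medians at 72 h were 0.41, 0.41 and 0.40 for the 3 positions, so the gap at 72 h came with the members that were under 1 FPKM in the control.

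**Figure D4:**
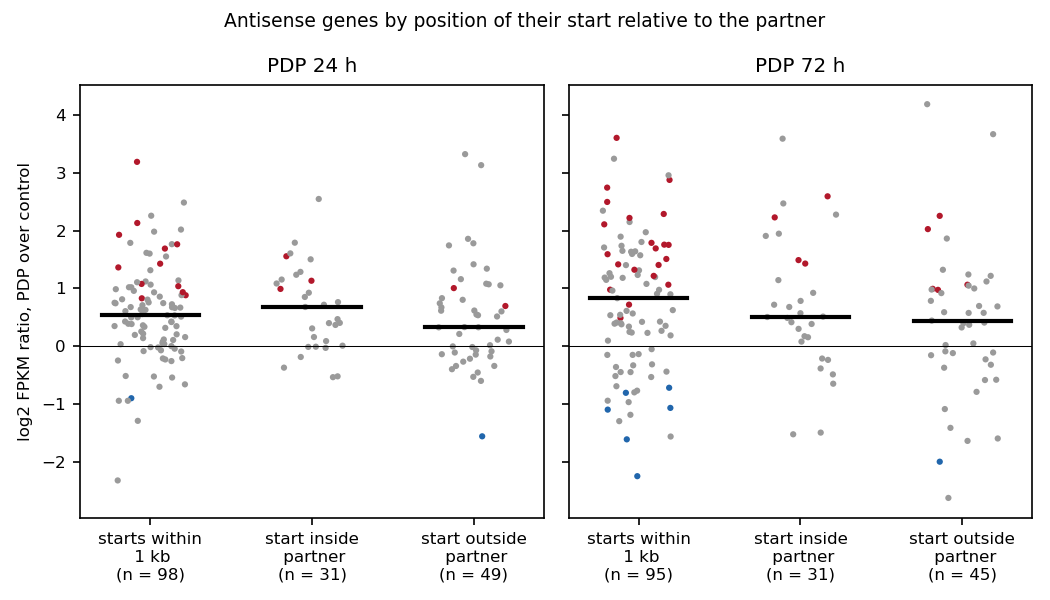
Log2 fold change of antisense RNAs at 24 h and 72 h by position relative to the partner (starts within 1 kb, start inside the partner, start outside it); points are genes, red where called higher and blue where called lower, and lines are medians. The medians at 72 h are 0.83, 0.51 and 0.44, and the point clouds overlap.

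Since the tables were made, 48 of the 276 genes have been renamed as divergent transcripts (symbols ending in -DT) and 215 keep an antisense symbol. The 48 had median log2 fold changes of -0.13, 0.83 and 1.39. Of them, 9 were called higher and none lower of 46 tested at 24 h, and 15 higher and 2 lower of 47 at 72 h. The 215 had medians of 0.04, 0.46 and 0.50. Of those, 16 were called higher and 2 lower of 204 tested at 24 h, and 29 higher and 5 lower of 203 at 72 h. Over all genes tested the shares were 9.21% higher and 8.29% lower at 24 h, and 19.0% and 12.8% at 72 h. Both sets include members under 1 FPKM in the control, whose rises are in part fixed by the choice. With at least 1 FPKM in the control the medians were 0.51 and 0.45 at 24 h and 72 h over 28 divergent transcripts, against 0.33 and 0.40 over 153 antisense RNAs.

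RNA surveillance genes, which limit such transcripts, were followed as a list of 66 genes with values. None was called at 3 h. At 24 h none rose and 11 fell of 66 tested, and at 72 h 3 rose and 12 fell of 64, with median log2 fold changes of -0.26 and -0.00. The lower shares, 16.7% and 18.8%, stand beside 8.29% and 12.8% of all genes tested and 12.4% and 16.9% of genes at 5 FPKM or more. Over the whole list they were closer to those of genes of that level. The higher shares were 0% and 4.69%. They stand below 9.21% and 19.0% of all genes tested and 4.85% and 17.3% of genes at 5 FPKM or more. The exosome and its adaptors, 19 genes, had 3 lower at 24 h (15.8%) and 5 at 72 h (26.3%). Early termination and cleavage, 27 genes, had 7 lower at 24 h (25.9%), and 2 higher (7.41%) and 6 lower (22.2%) at 72 h. Both sets thus had lower shares above those of genes at 5 FPKM or more. The 3 U1 snRNP proteins had no call. Of 17 genes for double-stranded RNA and small RNA 1 fell at 24 h (5.88%), and 1 rose and 1 fell at 72 h (6.67% each of 15 tested). Besides INTS6, the Integrator subunit INTS5 fell from 19.4 to 9.83 FPKM at 24 h, then from 18.1 to 2.60 FPKM at 72 h, and INTS7 from 35.9 to 18.5 FPKM at 24 h. The cleavage factor CLP1 fell at 72 h from 20.8 to 3.69 FPKM, whereas PCF11, which binds it, rose from 25.2 to 88.5 FPKM. INTS10 rose from 26.7 to 45.8 FPKM and the kinase activator PRKRA from 26.3 to 40.0 FPKM at 72 h, and the microRNA processing gene DGCR8 fell from 42.7 to 18.6 FPKM with a standard error of 0.99 on its log2 fold change of -1.20.

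The pull-down peaks, which the choice of members did not use, lay in the locus entries of antisense RNAs about as often as in those of other genes when overlapping genes share an entry. Of 51446 peaks, at least 1 had its centre inside the table's locus entry for 174 of 276 antisense RNAs (63.0%), against 9217 of 15322 genes that reached 1 FPKM (60.2%). A locus entry can hold several overlapping genes, and its median length was 59727 bases for antisense RNAs and 56580 bases for those genes. In entries that hold no other gene a peak lay in 8 of 46 antisense loci (17.4%), of median length 2552 bases, against 1623 of 4706 (34.5%), of median length 18096 bases. The most peaks were in the loci of NFIA-AS1 with 34, ZRANB2-AS2 with 29, ARRDC1-AS1 with 23 and SATB1-AS1 with 22, of which ARRDC1-AS1 rose at 72 h from 12.5 to 24.5 FPKM and ZRANB2-AS2 fell. Within 500 bases of the start a peak was found for 3 of 222 antisense RNAs (1.35%), EPB41L4A-AS1, PAN3-AS1 and UNC5B-AS1, against 80 of 10904 genes (0.734%), and none of these 3 had a call.

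The G-run motif occurred in 80 of 222 antisense promoters (36.0%), in 3807 of 10904 promoters of genes that reached 1 FPKM (34.9%) and in 6544 of all 27305 RefSeq promoters of that length (24.0%). Their median GC content was 65.8%, 65.7% and 58.3%. Antisense RNAs with the motif had median log2 fold changes of 0.53 at 24 h and 0.62 at 72 h, with 8 called higher and 2 lower of 76 tested at 24 h, and 15 higher and 4 lower of 78 at 72 h. The 142 without it had medians of 0.42 and 0.50, with 13 higher and none lower of 135 tested at 24 h, and 22 higher and 3 lower of 135 at 72 h. Over all genes the shares were 9.21% higher and 8.29% lower at 24 h and 19.0% and 12.8% at 72 h.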

How the data were processed

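Poly(A) RNA libraries were made with the VAHTS Stranded kit, per the labels' protocols. Per the submitters' processing notes, the genome build was GRCh38.p7. The same notes list Cufflinks 2.2.1 and HISAT2 2.0.5, tools for RNA, and Bowtie2 2.2.9, HOMER 4.9.1, Trim Galore 0.4.4, Picard and SAMtools 1.3.1, with no settings or order. The authors' deposited RNA tables give FPKM, 1 value per condition pooled over 2 samples, with the authors' p-value and q-value. The authors' deposited test statistic, a score, served to back out the standard error, which is the size of the log2 fold change over that statistic. The authors' deposited peak score was used only to rank peaks. Depth per library is unknown, because the values are pooled FPKM.

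From these, log2 fold changes (PDP over control) were computed with Python 3.11.15, pandas 2.3.3 and NumPy 2.4.6. Medians used genes with at least 1 FPKM in either condition and above 0 in both. Partners were matched by name, following 3 older symbols. No test was added. Starts, strands and promoters came from RefSeq on GRCh38.p14. Of the members, 222 had a promoter there. Starts in the tables were written from 1. Scripts were tested on simulated data. The members and lists were chosen with earlier results of these data known.

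Named genes were, by rule, the 6 highest antisense RNAs, up to 8 called per direction and time by size, those called at 2 times, pairs with both genes called (all opposite ones and the 6 largest in the same direction), called members of the described list, up to 3 surveillance genes per direction and time, the 4 with most peaks, and the 3 genes nearest in change to the most abundant member and to the called one with the largest fold rise at 72 h. Alternatives were stricter thresholds, other minimums, a pseudocount, other scaling, and other ways to count pairs and peaks. Results for some genes are not reported here.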

Additional observations from a re-analysis of the deposited data

Results flagged for a closer look

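TMCC1-AS1 moved in opposite directions at the 2 later time points, with a log2 fold change of 1.08 at 24 h and -1.10 at 72 h. The standard errors implied by the authors' statistic were 0.37 and 0.47, and the q-values in the authors' deposited tables were 0.000908 and 0.00583. The difference between the time points was not tested, and both comparisons share the control. Each value is pooled over 2 samples, so their spread cannot be seen.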

How the results depend on the processing

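At 24 h and 72 h the median antisense log2 fold change stayed above 0 in each alternative tried. It was 0.35 and 0.41 with a pseudocount of 1, 0.39 and 0.45 for a geometric mean of at least 1 FPKM, and 0.67 and 0.45 with equal FPKM sums. It was 0.36 at 24 h with at least 5 FPKM in either condition, against 0.07 with at least 5 FPKM in the control. At 72 h it was 0.43 after subtracting the median of all genes. Taking members by control FPKM of at least 1, chosen after seeing the data, gave 0.33 and 0.40, and partners called higher 7 and 29 and, at 72 h, lower 23. At q under 0.01 antisense RNAs called higher at 24 h were 11 and lower 1, those lower at 72 h were 2, partners called higher were 0 at 3 h and 5 at 24 h, and partners lower at 24 h were 22. With a log2 change of at least 1, antisense RNAs lower at 24 h were 1, partners lower were 7 and 17 at 24 h and 72 h, and partners higher at 72 h were 22. With members reaching 5 FPKM in any column, antisense RNAs called higher were 15 and 31 and lower 1 and 4. Partners called higher were then 1 and 10 and lower 8 and 8. A PDP value alone can admit such a member, so these rises are in part fixed by the choice. For the stricter q, the log2 change and the 5 FPKM in any column, no share of all genes is given. Those counts show only how the calls depend on the setting. With 5 FPKM or more in the control, 3 and 8 of 53 antisense RNAs were called higher. Those are 5.66% and 15.1%, beside 4.85% and 17.3% of all genes at that level. Pairs in different loci had rho of -0.17, -0.078 and -0.26 at 3, 24 and 72 h and 21, 29 and 23 opposite pairs, while same-locus pairs had rho of 0.16 at 72 h. With a geometric mean of at least 5 FPKM there were 13, 21 and 20 opposite pairs, and rho at 3 h was 0.10. In loci that held no other gene, 8 of 46 antisense RNAs had a peak (17.4%, against 34.5% of genes that reached 1 FPKM). The signs of rho thus depend on which pairs are kept, and the cause was not tested. The other 50 values stayed within 0.1 for medians and rho or within 1.5 times for counts. No paired analysis was possible because the tables hold 1 pooled value per condition, and for the same reason leaving out a replicate was not run. Wide standard errors limit what can be called for low antisense RNAs.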

Other observations

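At 3 h, the members with an unadjusted p under 0.05 in the authors' deposited table, singled out after their values were seen, were CDC37L1-AS1 at 0.689 FPKM in the control and 8.61 FPKM after PDP, TMC3-AS1 at 4.65 and 2.12 FPKM, and COX10-AS1 at 10.4 and 7.46 FPKM. None has a q-value under 0.05. CDC37L1-AS1 stood at 1.21 FPKM after PDP at 24 h and 2.64 FPKM at 72 h.

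ST3GAL4-AS1, named after its values were seen and now named GSEC, is known as a noncoding RNA with a G-quadruplex-forming stretch. It stood at 0.648 FPKM in the control and 0.700 FPKM after PDP at 3 h, at 0.673 and 1.57 FPKM at 24 h, and at 0.628 and 0.645 FPKM at 72 h, with no call.

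By Euclidean distance over the log2 fold changes at the 3 time points, among 12563 genes with at least 1 FPKM in every column, the genes nearest to LRRC75A-AS1 were SDHAP1, CDC37 and DCTN2, at distances of 0.0234, 0.0238 and 0.0248. Those nearest to CEP83-AS1 were GEM, RP13-638C3.2 and RP11-122K13.12, at 0.627, 0.819 and 0.827.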
